A study of Mus musculus with 10 samples.

Results

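Heat shock proteins and their partner chaperones were examined in the brain of Cin85-/- mice. The members were the genes whose symbol in the array's probe annotation begins with the stems of the HSP, DNAJ, CCT, PDIA and BAG families, together with Tcp1, Calr, Canx and the transcription factors Xbp1, Atf4 and Ddit3. They came to 79 of the 9930 genes that the annotation names, on 126 of its 14030 probes with a single symbol. A probe was tested where at least 4 mice had both of their arrays measured, which left 111 probes of 76 members. By the compartment where the protein works, 45 tested genes belonged to the cytosol and nucleus, 10 to the mitochondrion and 15 to the endoplasmic reticulum (ER). The 3 transcription factors, and 3 genes put in no compartment (Cct8l1, Hspa12b and Hspb11), made up the rest. Bag1, Dnajc1 and Dnajc17 had no probe that could be tested, and Hspa8, Hsp90ab1, Pdia3, Dnajb9, Hsf1 and Atf6 were not analysed here.

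Brain RNA of 5 male Cin85-/- mice aged 15 weeks was hybridised on two-colour arrays against a single pool of brain RNA from male wildtype mice of the same age. Each mouse had 2 arrays, one with its RNA in Cy5 and one with its RNA in Cy3, so that there were 10 arrays and 5 replicates. The pool held 5 mice by the series design and the listed animals and 6 by the labelling protocol. It is 1 control sample, so the tests leave out the spread between wildtype mice. Cin85 is an adaptor protein with SH3 domains, encoded by Sh3kbp1. The labels give no background strain and do not say which part of the gene is missing, and the source name of the mutant RNA carries an unexplained "Kdn".

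Chaperones bind unfolded or partly folded proteins and keep them from aggregating. HSP70 proteins work in cycles of ATP hydrolysis that J proteins (the DNAJ family) start and nucleotide exchange factors such as the BAG proteins and HSP110 end, while HSP90 and the ring complexes TRiC and HSP60 complete the folding of particular clients. Unfolded protein in the cytosol releases the heat shock factor, which switches on heat shock genes, and unfolded protein in the ER activates Xbp1, Atf6 and Atf4, which raise ER chaperones such as Hspa5 (BiP). In neurons some J proteins serve the synapse: Dnajc5 (cysteine string protein) guards proteins of the synaptic vesicle, and Dnajc6 (auxilin) directs HSP70 to strip clathrin from vesicles.

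The DNA elements behind these programmes were looked for in RefSeq promoters (GRCm38.p6), from 250 bases before to 50 bases after the transcript start, on both strands, for the 68 members found in that table. They are shown because they split the members by a feature that the selection did not use. A heat shock element, GAANNTTCNNGAA, was present for Dnajb6, Hspd1, Hspe1 and Hsph1, which is 5.88% of the 68 against 0.662% of all genes in the table (0.603% of promoters). An ER stress element, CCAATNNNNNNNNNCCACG, which contains a CCAAT box, was present for Calr, Canx, Dnajc3, Hsp90b1, Hspa5 and Pdia6, which is 8.82% against 0.137% of genes (0.119% of promoters). The amino acid response element TTGCATCA was found for 0 of the 68 members and for 1.03% of genes (0.895% of promoters). A match describes the letters only. Below, 5 of the matched stretches are given 5′ to 3′ on the strand of the gene, with the match in capitals; in Calr the element lies on the opposite strand and reads as its reverse complement.
Hspe1, chr1:55088039-55088101, plus strand: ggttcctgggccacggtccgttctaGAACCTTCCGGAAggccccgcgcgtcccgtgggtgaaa
Hspa5, chr2:34772000-34772068, plus strand: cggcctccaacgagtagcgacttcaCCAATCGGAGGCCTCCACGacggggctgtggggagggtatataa
Pdia6, chr12:17266466-17266534, plus strand: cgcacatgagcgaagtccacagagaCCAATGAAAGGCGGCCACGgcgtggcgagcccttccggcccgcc
Hsp90b1, chr10:86705613-86705681, minus strand: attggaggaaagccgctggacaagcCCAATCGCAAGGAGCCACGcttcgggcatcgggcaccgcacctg
Calr, chr8:84847050-84847118, minus strand: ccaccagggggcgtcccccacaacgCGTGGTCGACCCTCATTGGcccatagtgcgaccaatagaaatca
The Hspe1 stretch is also the upstream region of Hspd1, which lies head to head with it and is read from the minus strand. The element of Hspa5 ends 47 bases before the start, and the stretch shown runs on into its TATA sequence.

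The values are log2 ratios of mutant and pool on the scale the authors deposited. The labels state neither the numerator nor whether the Cy3 columns had been turned to match the Cy5 ones, so a sign is that of the deposited scale and does not say which sample was higher. The mean of a mouse's 2 arrays is called the pair mean. It is the difference from the pool if the columns had been turned, and a bias of the dyes if all of them run Cy5 over Cy3. The dye term, the Cy5 array minus the Cy3 array divided by 2, then takes the other role. Signal intensities were not analysed, so the depth behind a ratio is unknown, and precision is limited by how few arrays there are. The array of mouse 3 with the mutant in Cy3 stood apart, with 3539 missing probes against 931 to 1582 on the others and an interquartile range of 1.43 against 0.453 to 0.994. Each array also repeated 1 extreme ratio of over 10 in size, 384 times in all and always positive where the mutant was in Cy5, and 640 times and always negative where it was in Cy3. These sat at 9 member values, of which 2 were on tested probes. The targeted gene, Sh3kbp1, gave 0.0082 ± 0.139 (SD, n = 5) on its tested probe, where the part of the transcript covered is not given, so this value does not check the genotype. Its second probe had values on 4 of 10 arrays and was not tested. The files hold ratios and no levels, so brain identity could not be checked by marker levels.

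No chaperone probe passed the threshold for a difference between Cin85-/- brain and the pool. Under an adjusted p of 0.05 (limma on the 5 pair means, Benjamini-Hochberg over all 16939 tested probes) 0 of the 111 member probes were called, and 0% of all probes were. The smallest adjusted p of a member was 0.911. At an unadjusted p under 0.05 there was 1 member probe (Cct7), or 0.901%, against 3.73% of all probes. The median pair mean was -0.0082 over the member probes and 0.0006 over all probes, with 55 members positive and 56 negative. The median size of the 95% interval was 0.315 to either side, and the interval lay within 1.5-fold for 78 of 111 member probes (70.3%) against 60.7% of all probes, and within 2-fold for 100 (90.1%) against 85.8%. For those 100 probes a 2-fold pair mean in either direction lay outside the interval. That bears on a difference from the pool only if the Cy3 columns had been turned. Dnajb13 was among these probes, with a pair-mean interval from -0.34 to 0.88. Its dye term had an interval from 0.56 to 1.25, which reaches past 2-fold. In whole brain, fewer cells of a type and less RNA per cell could not be told apart.

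**Figure D1:**
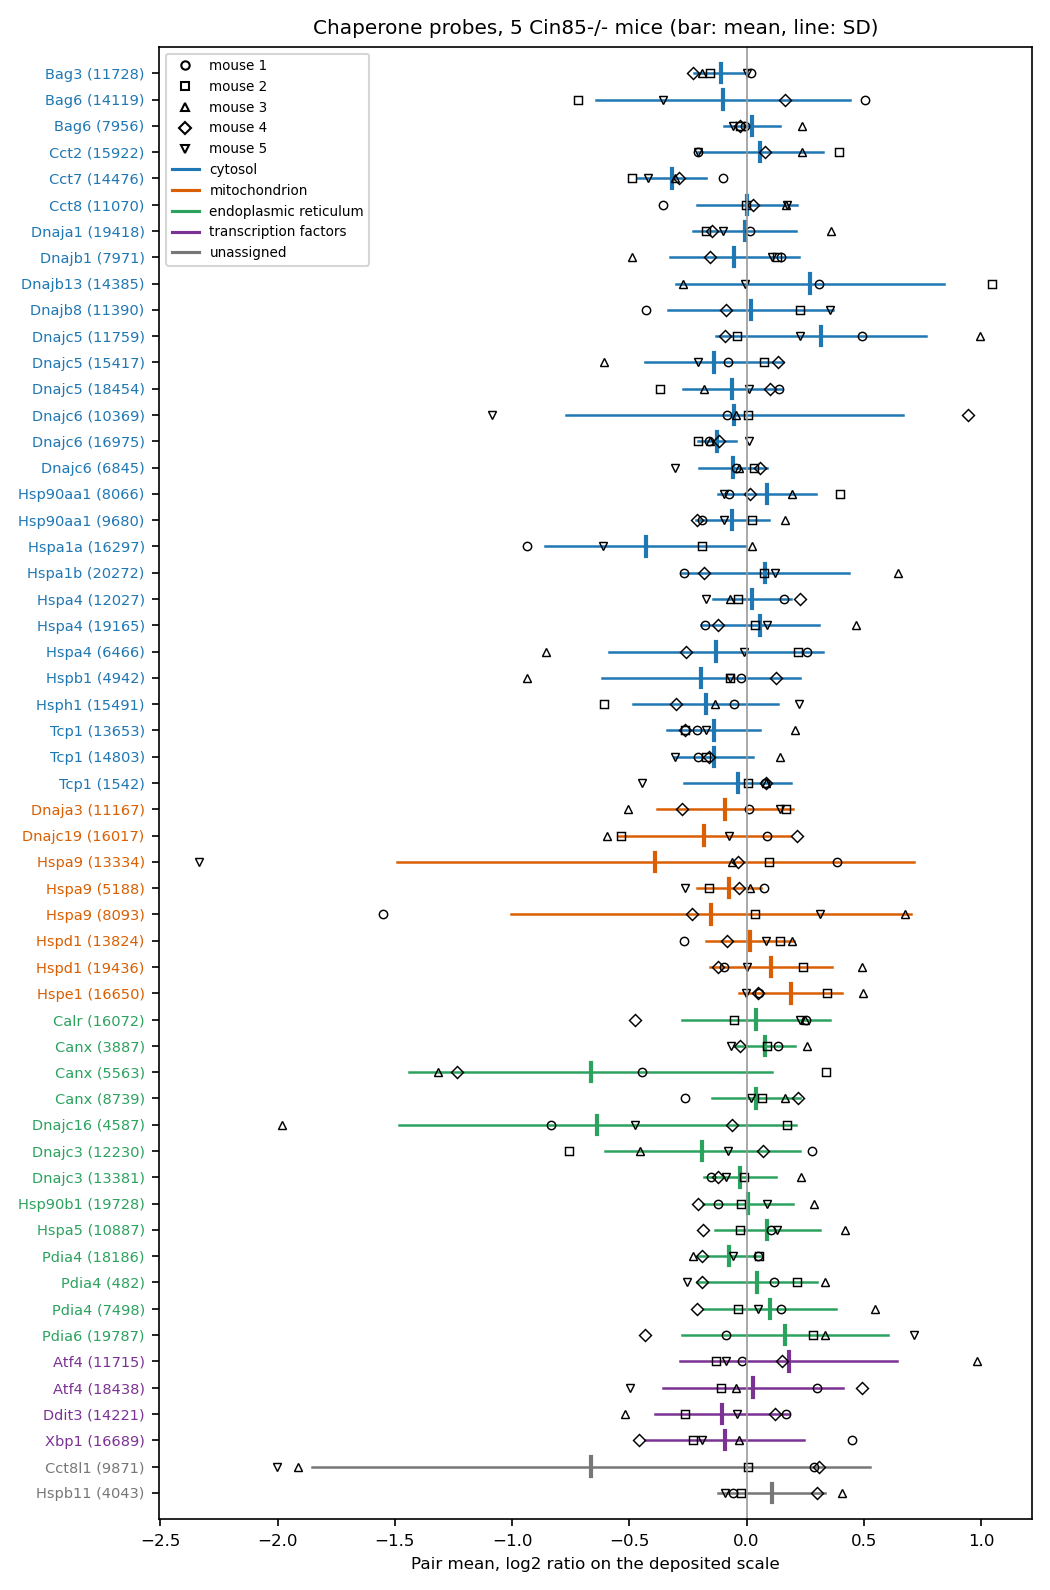
Pair means (log2 ratio on the deposited scale) of 55 probes of 36 chaperone genes in 5 Cin85-/- mice, with the probe number in brackets; symbols are mice, the upright bar is the mean and the line the SD (n = 4 for 5 probes). Most means lie within 1 SD of 0, the 5 mice of Cct7 are all negative, and the lowest single value is mouse 5 on an Hspa9 probe at -2.34.

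The tested cytosolic HSP70, HSP90 and HSP110 genes did not include Hspa8 or Hsp90ab1. Of these 7 tested genes, 4 had a positive mean and 3 a negative one, and the median was 0.013. It was -0.029 without mouse 3 and 0.064 for the dye term, for which the median of all named genes was -0.051. Hsp90aa1, the stress-inducible HSP90, was measured on 2 probes. The first gave -0.077, 0.40, 0.19, 0.014 and -0.098 in mice 1 to 5, a mean of 0.087 ± 0.209 (SD, n = 5). The second gave -0.19, 0.023, 0.17, -0.21 and -0.095, a mean of -0.061 ± 0.156. Both probes crossed 0 among the mice, and their means had opposite signs.

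The inducible HSP70 genes Hspa1a and Hspa1b encode nearly identical proteins, and the files do not say whether either probe tells the transcripts apart. Hspa1a gave -0.94, -0.19, 0.022 and -0.61 in mice 1, 2, 3 and 5, a mean of -0.43 ± 0.429 (SD, n = 4; adjusted p = 0.911 by limma). Mouse 4 had no pair. The mean was -0.26 without mouse 1, and in mouse 3 the value near 0 came from arrays at 1.49 (Cy5) and -1.45 (Cy3). Hspa1b gave -0.27, 0.073, 0.65, -0.18 and 0.12, a mean of 0.079 ± 0.357 (n = 5). The values of both genes ran on either side of 0.

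Hspa4, an HSP110-type exchange factor, had 3 probes at 0.022 ± 0.167, 0.058 ± 0.252 and -0.13 ± 0.456. Hsph1 (HSP105), of the same type and with a heat shock element after its start, gave -0.054, -0.61, -0.13, -0.30 and 0.23 in the 5 mice, a mean of -0.17 ± 0.309. Mouse 5 was the only positive one for Hsph1, and the interval ran from -0.51 to 0.16. Hspa14 and Hspa1l were also positive in the mean on each of their tested probes (0.085, 0.14 and 0.11), with SDs from 0.196 to 0.792.

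TRiC is a ring complex of different subunits (Tcp1 and the Cct proteins) that folds actin and tubulin. Cct7 gave -0.10, -0.49, -0.30, -0.29 and -0.42 in mice 1 to 5, a mean of -0.32 ± 0.148 (SD, n = 5) with a 95% interval from -0.56 to -0.081. All 5 mice were negative, and the unadjusted p of 0.0166 was the only one under 0.05 among members (adjusted p = 0.911 by limma). On single arrays the ratio was -0.18, -0.89, 0.26, -0.95 and -0.63 with the mutant in Cy5, and -0.024, -0.087, -0.87, 0.37 and -0.21 with it in Cy3. In each orientation 4 of 5 arrays were negative, and the exceptions belonged to mouse 3 and mouse 4. Its ring partners Cct2, Cct3, Cct4, Cct5, Cct6a and Cct8 had means of 0.059, 0.39, -0.067, 0.063, 0.35 and 0.0021. Cct4 had the smallest spread of these, 0.0559 over the mice, and Cct3 rested on mouse 3, at 1.96 against 0.16 or less in the others. Tcp1 had 3 probes, at -0.14 ± 0.198, -0.14 ± 0.169 and -0.038 ± 0.23. Of the 10 genes of this family tested, which include Cct6b and Cct8l1, 6 had a positive mean and 4 a negative one, and the median was 0.030. That split depended on the setting: it was 5 and 5 with the arrays scaled to each other (median -0.013) or with the extreme ratios missing (-0.034), and 3 and 7 without mouse 3 (-0.043). For the dye term it was also 3 and 7, with a median of -0.15 that was negative in all 5 mice. The median dye term of all named genes, -0.051, was negative in all 5 mice too.

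The J proteins were the largest family, with 33 tested genes. The mean was positive for 12 and negative for 21, and the family median was -0.045, where 4302 of all 8711 genes were positive and their median was -0.0026. The family's median was negative in each mouse, at -0.0038, -0.043, -0.054, -0.081 and -0.084, against -0.015, 0.0015, 0.028, -0.024 and -0.014 over all genes. Leaving out mouse 1 or 3 kept 12 genes positive and 21 negative (family medians -0.058 and -0.077). Leaving out mouse 2, 4 or 5 gave 15 and 18 (-0.014, -0.026 and -0.0135). Without centring, or with the arrays scaled to each other, 4 of 5 mice were negative (family medians -0.037 and -0.034), and with the dye term in place of the pair mean the family median was 0.051, with 18 genes positive and 15 negative. These settings, as for the other families, were chosen after seeing the data. None of the 50 J protein probes had an unadjusted p under 0.05. The cytosolic J proteins (18 genes) had a median of -0.033 and those of the ER (8 genes) one of -0.10. For the dye term these were -0.11 and 0.39, the ER median being positive in all 5 mice. Without mouse 4 or mouse 5 the cytosolic J proteins had medians of 0.00019 and 0.0059, each with 9 genes positive and 9 negative. The pair-mean median of the ER J proteins stayed between -0.12 and -0.078 with each mouse left out.

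Dnaja1 and Dnajb1, the main J partners of cytosolic HSP70, gave means of -0.0082 ± 0.219 and -0.052 ± 0.274 (SD, n = 5). The synaptic Dnajc5 had 3 probes with means of 0.32 ± 0.447, -0.14 ± 0.294 and -0.060 ± 0.211. The probe with the positive mean rested on mouse 1 (0.49) and mouse 3 (0.998), and the others disagreed with it in sign. Dnajc6, the clathrin-uncoating J protein, had 3 probes, all negative in the mean (-0.052 ± 0.718, -0.13 ± 0.083 and -0.058 ± 0.146). On the second of these, mice 1 to 5 gave -0.16, -0.21, -0.16, -0.12 and 0.012, with 4 of 5 negative and an interval from -0.34 to 0.088.

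Over all members, 5 of the 97 probes with a pair in every mouse and a value on all arrays had the same sign in all 5 mice (5.15%), against 7.01% of all such probes. Beside Cct7 these were Dnajb4 (-0.13 ± 0.06), Dnajc27 (-0.17 ± 0.115), Hspb7 (0.14 ± 0.145) and Dnajc10 (-0.54 ± 0.753). The same sign on all 10 arrays was found for 0 of 97 members and 0.214% of all probes. The small spread of Dnajb4 came with a mean of -0.28 in Cy5 and 0.015 in Cy3, so that the sign was not shared by the orientations. Dnajc27 was similar, at -0.34 and 0.002. In Dnajc10, an ER J protein that also reduces disulphide bonds, mouse 3 stood at -1.85, with both of its arrays low (-1.77 and -1.94).

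Small heat shock proteins hold unfolded clients without ATP. Of 7 tested genes of that name 5 had a positive mean and 2 a negative one (median 0.11); Hspb11, counted here by its symbol, is a protein of intraflagellar transport. Hspb1 (HSP25), the stress-inducible member, gave -0.024, -0.071, -0.94, 0.12 and -0.071 in mice 1 to 5, a mean of -0.20 ± 0.422. The low value of mouse 3 rested on its Cy3 array, at -2.002, while its Cy5 array gave 0.13. Hspb8, a partner of Bag3 in autophagy, had a mean of 0.24 ± 0.478, of which mouse 3 (1.07) was the highest. The median of the family was 0.41 in mouse 3 and between -0.071 and 0.084 in the others, and over the genes it was 0.017 without mouse 3 and -0.20 for the dye term.

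Of the 5 BAG factors tested, 3 had a positive mean and 2 a negative one (median 0.051). Without mouse 3 the counts were 4 and 1 (median 0.010), and with the arrays scaled to each other 5 and 0 (0.062). For the dye term they were 4 and 1, with a median of 0.27 that ran from 0.22 to 0.35 over the mice. Bag3 had probes at -0.11 ± 0.114 and 0.21 ± 0.32, and Bag6, which handles misplaced membrane proteins, at -0.10 ± 0.542 (n = 4) and 0.024 ± 0.121. Bag5 had the highest mean, 0.34 ± 0.64, with 4 of 5 mice positive and mouse 5 at -0.68.

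The mitochondrial chaperones import and fold proteins in the matrix. Hspe1 (HSP10), the lid of the HSP60 chamber, gave 0.055, 0.35, 0.50, 0.051 and -0.002 in mice 1 to 5, a mean of 0.19 ± 0.219 (SD, n = 5; adjusted p = 0.911 by limma). It was positive in 4 of 5 mice, and the mean was 0.11 without mouse 3. Hspd1 (HSP60), which shares the upstream region printed above with Hspe1, had 2 probes. The first gave -0.27, 0.14, 0.19, -0.085 and 0.082, a mean of 0.014 ± 0.188. The second gave -0.098, 0.24, 0.49, -0.12 and 0.003, a mean of 0.10 ± 0.26. In both Hspd1 probes, as in Hspe1, mice 2 and 3 were the highest, while mice 1 and 4 were negative for Hspd1 and slightly positive for Hspe1.

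Hspa9 (mortalin), the HSP70 of the import motor, had 3 probes, all negative in the mean, at -0.39 ± 1.10, -0.074 ± 0.137 and -0.15 ± 0.852. The first rested on mouse 5 at -2.34 and the last on mouse 1 at -1.55, where the probe with the small spread gave -0.26 and 0.074. Dnaja3, its J partner, gave -0.092 ± 0.291. The 10 mitochondrial genes had means from -0.21 to 0.19, of which 5 were positive and 5 negative.

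In the ER, Hspa5 (BiP), the HSP70 of the lumen and the usual readout of the unfolded protein response, gave pair means of 0.11, -0.030, 0.42, -0.19 and 0.13 in mice 1 to 5. Their mean was 0.089 ± 0.225 (SD, n = 5; adjusted p = 0.917 by limma), with an interval from -0.19 to 0.37, and 0.0053 without mouse 3. The single arrays fell apart by dye. With the mutant in Cy5 the ratios were -0.31, -0.58, -0.17, -0.45 and -0.72, and with it in Cy3 they were 0.52, 0.52, 1.01, 0.077 and 0.99. The 2 sets did not overlap and had opposite signs throughout, as did those of 7.47% of all probes measured on every array. The dye term of -0.53 had an unadjusted p of 0.0034 and an adjusted p of 0.0988 by limma. Of all probes, 27.6% had a dye term with an unadjusted p under 0.05 by limma.

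Hsp90b1 (GRP94), the HSP90 of the lumen, gave -0.12, -0.022, 0.29, -0.21 and 0.088, a mean of 0.0047 ± 0.192. Calr, a lectin chaperone that binds calcium, gave 0.25, -0.056, 0.25, -0.47 and 0.23, a mean of 0.040 ± 0.315. Mouse 4 was the lowest in both. Pdia6, a disulphide isomerase that acts with Hspa5, gave -0.089, 0.28, 0.34, -0.43 and 0.72, a mean of 0.16 ± 0.438, which was 0.025 without mouse 5. Canx, the membrane-bound lectin chaperone, had 2 probes at 0.077 ± 0.131 and 0.041 ± 0.186 and another at -0.67 ± 0.775 (n = 4). Dnajc3, which holds down the kinase PERK, had probes at -0.19 ± 0.416 and -0.028 ± 0.154, and the 3 Pdia4 probes lay at -0.075, 0.045 and 0.099. Over the 5 lectin chaperones and isomerases the median pair mean was 0.023 (3 positive, 2 negative) and -0.012 without mouse 3. Their median dye term was -0.33 (1 positive, 4 negative), negative in all 5 mice, as was that of all named genes (-0.051).

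**Figure D2:**
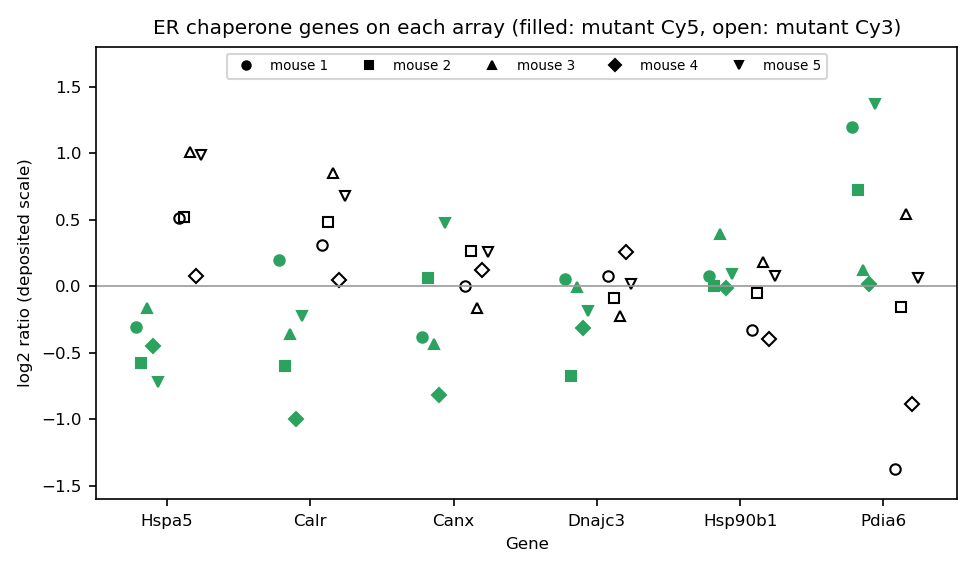
Log2 ratio (deposited scale) on each of the 10 arrays for the 6 ER genes with an ER stress element, probes of a gene averaged; filled symbols have the mutant in Cy5, open symbols in Cy3, and shapes are mice. For Hspa5 every Cy5 array lies below 0 and every Cy3 array above it, while for Hsp90b1 both orientations straddle 0.

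These 6 genes with the ER stress element had a median of 0.022 (4 positive, 2 negative), against 0.0021 for the 59 measured members without it. The median was -0.039 without mouse 3 and -0.18 for the dye term (2 positive, 4 negative). Their medians in mice 1 to 5 were -0.012, -0.026, 0.27, -0.28 and 0.11. In mouse 4, 0 of the 6 was positive, and over all ER genes 1 of 15 was, against 17 of 43 cytosolic and 6 of 10 mitochondrial genes measured in that mouse. In mouse 3 the same 6 genes were mostly positive (4 of 6). The members without the ER stress element had medians of the same signs, 0.145 in mouse 3 and -0.0505 in mouse 4. The 4 genes with the heat shock element had a median of 0.057, with 3 positive and Hsph1 negative, and a median dye term of -0.063 with 1 positive. Each of these counts rests on 1 animal or a few genes, and no test was made of them.

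The ER J proteins held several of the largest sizes. Dnajc16 gave -0.83, 0.17, -1.98, -0.062 and -0.48, a mean of -0.64 ± 0.846, which was -0.30 without mouse 3. Dnajc25 had probes at 0.84 ± 1.39 and -0.047 ± 0.466 (n = 4 each). Across all members 7 probes had a size over 0.5 and 91 of 111 one under 0.25. The 2 largest, Cct6b at 2.45 and Dnajc5g at -1.56, each rested on 1 repeated extreme ratio, of 16.8 (mouse 3, Cy5) and -17.4 (mouse 4, Cy3).

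The transcription factors that control these programmes gave no shared sign in the pair mean (1 positive, 2 negative; median -0.092). Xbp1, whose spliced form drives ER chaperones, had a mean of -0.092 ± 0.339. Atf4, translated when PERK is active, had probes at 0.18 ± 0.462 and 0.029 ± 0.383, and Ddit3 (CHOP), its target in prolonged stress, gave -0.11 ± 0.285 (SD, n = 5 each). Mouse 3 stood at 0.98 on the first Atf4 probe, with its Cy3 array at 1.68 and its Cy5 array at 0.29. By orientation the means of the 3 genes were all negative with the mutant in Cy5 (median -0.32) and all positive with it in Cy3 (0.13). Xbp1 was near 0 in Cy3, at 0.0048 ± 0.728, with 2 of 5 arrays positive. Means of opposite sign in the orientations were found for 70.8% of all tested probes. The dye terms of the 3 genes were all negative, with a median of -0.24 that was negative in all 5 mice. The median dye term of all named genes, -0.051, was also negative in all 5 mice (-0.066 to -0.0035). The arrays do not read Xbp1 splicing or Atf4 translation.

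Compared by compartment, the pair means of the 3 gene groups lay close to each other and to those of all genes. The median over genes was 0.0021 in the cytosol, 0.0032 in the mitochondrion and 0.0047 in the ER, against -0.0026 over all 8711 named genes. The mean over genes had the same sign as the median in the cytosol (0.013) and the mitochondrion (0.0028), and the opposite sign in the ER (-0.067). In mice 1 to 5 the cytosolic median was 0.0063, -0.008, 0.070, -0.048 and -0.072. The mitochondrial median was -0.014, -0.020, 0.21, 0.036 and 0.039. The ER median was -0.020, 0.078, 0.22, -0.20 and -0.084, which gave it the widest range of the 3. The ER median exceeded the cytosolic one by 0.0087 ± 0.115 (SD, n = 5), with 2 of 5 mice positive, and the mitochondrial median exceeded it by 0.060 ± 0.073, with 3 of 5 positive. Both differences were smaller than their spread over the mice. Without mouse 3, whose Cy3 array stood apart, they were -0.026 ± 0.097 and 0.040 ± 0.066. The dye terms lay further apart, with medians over genes of -0.045 in the cytosol, 0.055 in the mitochondrion and 0.11 in the ER. Mouse by mouse, the ER median of the dye term exceeded the cytosolic one by 0.031 ± 0.060 and the mitochondrial median exceeded it by 0.057 ± 0.120, each with 3 of 5 mice positive. Probe by probe, the median SD over mice was 0.271 in the cytosol, 0.239 in the mitochondrion and 0.299 in the ER, against 0.34 over all probes.

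**Figure D3:**
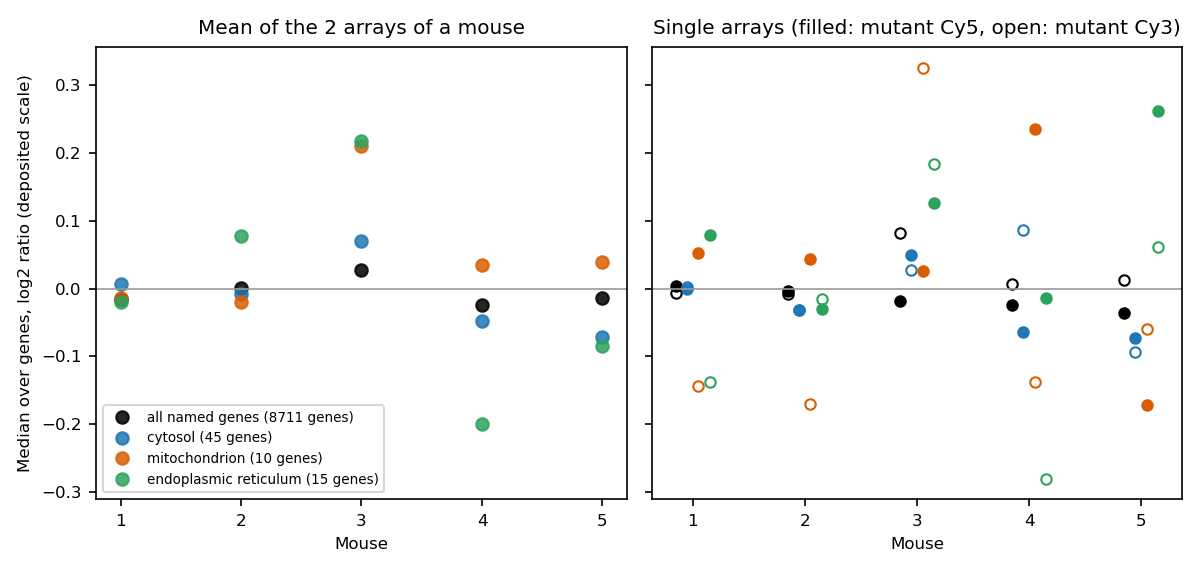
Median log2 ratio (deposited scale) over the genes of each compartment and over all named genes, by mouse (left, mean of 2 arrays) and by array (right; filled with the mutant in Cy5, open in Cy3). The ER median runs from -0.20 in mouse 4 to 0.22 in mouse 3, while the median of all genes stays between -0.024 and 0.028.

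Most probes on the arrays, chaperones included, had opposite signs in the dye orientations. The mean over the Cy5 arrays and the mean over the Cy3 arrays had opposite signs for 83 of the 111 member probes (74.8%) and the same sign for 28. Among all tested probes 70.8% had opposite signs, so the share of the members was near the background. The dye term had an unadjusted p under 0.05 for 39 of 111 members (35.1%), against 27.6% of all probes, and an adjusted p under 0.05 for 0 members and 0% of all probes. By compartment this was 23 of 68 probes in the cytosol, 3 of 14 in the mitochondrion and 11 of 22 in the ER. The 5 arrays of one orientation all had 1 sign, and the 5 of the other all the opposite sign, for 12 of 97 member probes (12.4%) against 7.47% of all probes measured on every array. Over all probes, arrays of the same orientation correlated at 0.084 to 0.261 (Cy5) and -0.067 to 0.224 (Cy3), and the 2 arrays of a mouse at -0.265 to 0.0032, as a description of arrays that share a pool.

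Of the 12 probes, 7 were positive with the mutant in Cy5: Bag3, Cct8, Dnaja4, Dnajc6, Hspa14, Dnajb12 and Dnajc16. Bag3, an exchange factor that sends clients to autophagy, had ratios of 0.33, 0.42, 0.33, 0.25 and 0.64 in Cy5 and -0.29, -0.72, -0.71, -0.71 and -0.64 in Cy3. Cct8 had means of 0.50 ± 0.298 in Cy5 and -0.50 ± 0.19 in Cy3, so that its pair mean of 0.0021 is the mean of opposite values. Dnajc16 had means of 0.89 ± 0.421 and -2.16 ± 1.61. The other 5, Dnajb6, Hspa4, Hspb2, Hspa5 and Hspa9, were negative in Cy5. Hspa9 had -0.44 ± 0.198 in Cy5 and 0.29 ± 0.109 in Cy3 on that probe. The 5 smallest unadjusted p-values of the dye term among members were those of Dnajb13 (0.00097), Bag3 (0.0018), Cct8 (0.0019), Dnajb8 (0.0020) and Dnajc16 (0.0020), each with an adjusted p of 0.0988 by limma. If every column runs Cy5 over Cy3, these dye terms are the differences from the pool. Which reading holds cannot be told from the labels.

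**Figure D4:**
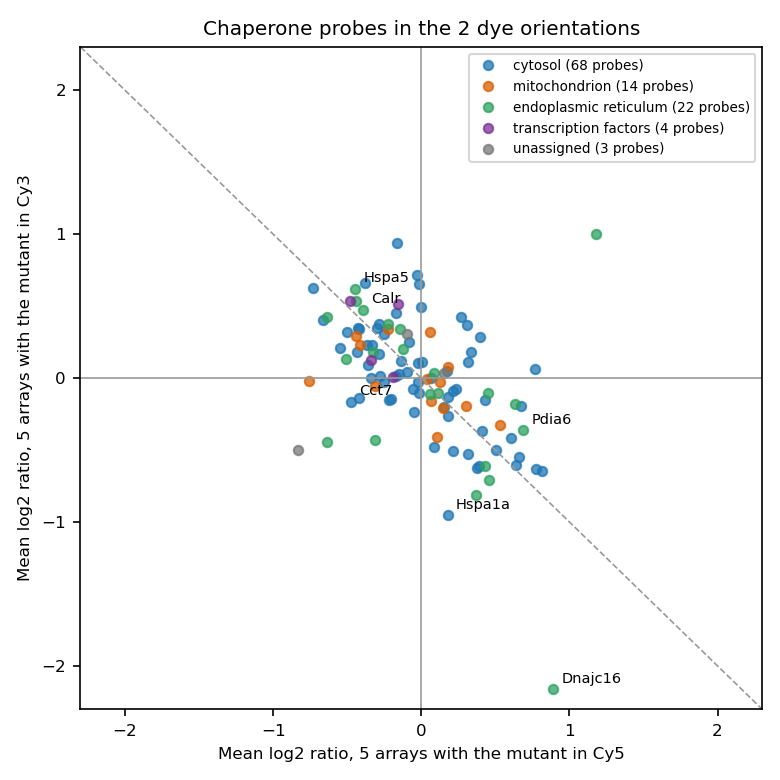
Mean log2 ratio (deposited scale) over the 5 arrays with the mutant in Cy5 (across) and over the 5 with it in Cy3 (up) for each tested chaperone probe, coloured by compartment; the dashed line marks equal and opposite means, and 2 probes lie outside the limits of 2.3. Most points lie at the upper left and lower right (83 of 111), and Cct7 lies in the lower left with both means negative.

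Probes that the annotation gives to 1 gene often disagreed. Among 25 members with several tested probes, 17 had probes of both signs and 8 of a single sign, and the median range between probes of a gene was 0.20. Dnajb6 had 5 probes between -0.080 and 0.26. For Hspa4, 1 probe was negative in Cy5 and positive in Cy3 on every array (means -0.30 and 0.35), while another had means of 0.66 and -0.55. Gene names come from an old platform annotation, and a wrong name would give the value of another gene.

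Genes that work with the chaperones but are no members were followed from a list of 72, of which 38 were tested on 50 probes. Of these genes 18 were positive and 20 negative, and 0 probes were called. An unadjusted p under 0.05 by limma was found for 2 of the 50, against 3.73% of all probes. By compartment the medians were 0.016 in the cytosol (14 genes), -0.006 in the mitochondrion (8 genes) and -0.020 in the ER (16 genes). With the extreme ratios missing they were 0.13 (9 positive, 5 negative), -0.0081 and -0.021. The cytosolic median was 0.11 without mouse 1 and -0.0095 without mouse 2. Stip1 (HOP), which passes clients from HSP70 to HSP90, had a mean of -0.55 ± 1.37 (n = 4), with mouse 5 at -2.60. Cdc37, the kinase adaptor of HSP90, gave 0.24 ± 0.319 with 4 of 5 mice positive. Vbp1, a prefoldin subunit that delivers actin and tubulin to TRiC, gave -0.45 ± 0.315 with 0 of 5 positive. The same sign in all 5 mice was found for 7.01% of all probes measured on every array.

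Markers of neurons, microglia, endothelium and meninges, choroid plexus and ependyma, red blood cells and kidney were also listed (51 genes, 29 tested on 42 probes). Of these 13 were positive and 16 negative, with 0 probes called and 5 of 42 at an unadjusted p under 0.05, where 3.73% of all probes had one. The 5 genes of choroid plexus and ependyma were all negative, with a median of -0.32 and per-mouse medians of -0.089, 0.0025, -0.29, -0.23 and -0.51. Their median was -0.26 without mouse 3 and -0.063 for the dye term, each with 2 genes positive and 3 negative. Of their 7 probes, 3 had an unadjusted p under 0.05 by limma. The 4 neuron genes (1 positive, 3 negative) had a median of -0.19, which was 0.052 without mouse 5. That mouse had a neuron median of -1.34, and the others lay between -0.044 and 0.056. The low value depended on the repeated extreme ratios. With these set to missing, the neuron median of mouse 5 was -0.025. The median over the neuron genes was then 0.011 (2 positive, 2 negative). The 5 kidney genes (3 positive, 2 negative) had a median of 0.22, and -0.19 for the dye term. The part of these markers in the chaperone values was not tested.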

How the data were processed

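The deposited values are the authors' log2 ratios on 10 arrays. The log base was read from the range and symmetry of the values. How the authors scanned, corrected and normalized the arrays is not given in the sources used. Per the labels' protocols, RNA was extracted from whole organs with a column kit and labelled indirectly with Cy3 or Cy5. Each array was centred on its median, both arrays of each mouse were averaged into a pair mean, and the means of the 5 mice were tested against 0 with limma 3.58.1 in R 4.3.3, with Benjamini-Hochberg adjustment over all 16939 probes and a threshold of 0.05. The scripts were tested on simulated data. Compartment medians are over genes, with probes of a gene averaged. Alternatives were no centring, scaling between arrays, a random block for the mouse, the other reading of the swap, each orientation alone, other filters, extreme ratios set to missing, other gene summaries and leaving out each mouse.

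The members and lists were chosen with earlier results of these data known. Named genes were a set list of main chaperones, the 2 probes of smallest p in each compartment, the 5 of smallest p for the dye term, every member past the threshold and every member with 1 sign on all 10 arrays; others named in the text were chosen after their values were seen. The labels list separate animals for the 5 mutant mice.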

Additional observations from a re-analysis of the deposited data

Results flagged for a closer look

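Of 58 results with values in 4 or 5 mice, 8 had 1 mouse set apart from the others by more than Dixon's 95% limit, which chance alone does in about 1 of 20 groups. Mouse 3 stood apart at 0.24 on Bag6 probe 7956, at -0.94 on Hspb1 probe 4942, at 0.21 on Tcp1 probe 13653, at 0.98 on Atf4 probe 11715, and at 0.21 for the median of the mitochondrial chaperone genes. Its array with the mutant in Cy3 had the most missing values and the widest spread. Mouse 5 stood apart at -0.31 on Dnajc6 probe 6845, at -0.45 on Tcp1 probe 1542 and at -2.34 on Hspa9 probe 13334. On the other tested probes of Tcp1, Dnajc6 and Hspa9, that mouse was not beyond the limit.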

How the results depend on the processing

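Every setting tried called 0 probes and 0 member probes by limma at an adjusted p under 0.05, with between 1 and 43 member probes at an unadjusted p under 0.05 (1 in the main analysis, 43 with the Cy5 arrays alone). The smallest adjusted p of a member by limma was 0.0831 with the Cy5 arrays alone and 0.0988 for the dye term. The ER median was 0.24 with the Cy5 arrays alone, against the main 0.0047. That setting tested 118 member probes and the main analysis 111. On the probes of the main analysis the ER median with the Cy5 arrays alone was 0.11. With the Cy3 arrays alone, on 116 member probes, the mitochondrial minus cytosolic median was -0.026 against the main 0.060. The cause was not tested. The other compartment medians and differences moved by less than 1 SD over mice. Leaving out each mouse in turn gave ER medians of -0.066 to 0.034. Of the 55 named probe values, 24 changed sign under the other reading of the swap, 20 with the Cy5 arrays alone, 24 with the Cy3 arrays alone, and 5, 6, 13, 5 and 10 without mouse 1 to 5. Since none was called, a value counted as moved only where it changed by more than the SD, with or without a change of sign. That held for 80 of 875 recomputed values. No paired analysis was possible because there is a single group of mice measured against 1 pool. Signal over background is unknown, so what dim probes could show is not known.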
